A study of Mus musculus with 6 samples.

Results

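Heme synthesis, import and breakdown genes were examined in J774 cells, a mouse macrophage line, after knockdown of NCOA4. The group holds 9 of the 55487 gene identifiers in the deposited tables. They were taken by symbol through the GENCODE M21 annotation and grouped by role, with earlier results of these data known. Of these, 5 are enzymes of heme synthesis (Alas1, Alad, Urod, Cpox and Fech). The others are the lysosomal heme importer Slc48a1 and 3 enzymes of heme breakdown (Hmox1, Blvra and Blvrb). NCOA4 is the cargo receptor that carries ferritin, the iron storage protein, to the lysosome for degradation. The study compared J774 cells given control siRNA with J774 cells given NCOA4 siRNA, with 3 biological replicates of each and thus 6 libraries, and the question is how loss of NCOA4 changes the macrophage transcriptome. Cells of both groups were grown in the same serum-containing medium and received their siRNA by liposome-mediated transfection, so the controls share the transfection. No other agent is named in the labels of these libraries, and the model is 1 cell line with a transient and partial knockdown.

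Heme is built from glycine and succinyl-CoA in a pathway that starts and ends in the mitochondrion, and its rate is set in most cells at the initial step, by ALAS1. Macrophages also take in heme from engulfed red cells: SLC48A1 (HRG1) moves it from the phagolysosome to the cytosol, heme oxygenase 1 (HMOX1) opens the ring and frees iron, carbon monoxide and biliverdin, and the biliverdin reductases BLVRA and BLVRB reduce biliverdin. Transcription of Hmox1 is held down by BACH1, a heme-binding repressor, and driven by NRF2 with small MAF partners.

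Transcript abundance was given as TPM, a transcript's share of its library after correction for gene length, scaled to the same total in every library. In each library 15502155 to 18282129 reads lay on genes whose reads could be rebuilt as whole numbers. Ncoa4 fell in all NCOA4 siRNA libraries, from 21.6 ± 1.57 to 9.04 ± 0.533 TPM (SD, n = 3 per group), 41.9% of control, with an adjusted p of 0.00127 (limma). Of the 50-base words in Ncoa4 transcripts, 17.9% also stand in its processed pseudogene Gm6768, so its level is less certain than those of genes without a copy. Control siRNA replicate 1 stood apart from its group: the chi-square per gene between rebuilt reads was 11.6 and 11.7 against the other control replicates, 3.60 between those, and 1.96 to 2.35 among the NCOA4 siRNA libraries. All 8 macrophage markers were detected, with summed TPM of 7681 to 7813 with control siRNA and 8158 to 8317 with NCOA4 siRNA, and Adgre1, Csf1r and Fcgr3 rose. Lyz2 carried most of the sum, at 4885 ± 193 TPM with control siRNA and 5409 ± 51.7 TPM after NCOA4 knockdown (adjusted p 0.161). The markers did not all run one way: Cd68 was at 1832 ± 198 and 1570 ± 55.7 TPM (log2 fold change -0.22; adjusted p 0.178), with all NCOA4 siRNA values below all control values, and Spi1 overlapped between groups. Of 9 erythroid markers 7 were at 0 reads in every library, among them the 4 hemoglobin genes and Gata1, and the summed level was 1.5 to 1.79 TPM with control siRNA and 0.967 to 2.11 TPM with NCOA4 siRNA. Of the fibroblast, epithelial and lymphocyte markers, 3 of 5, 3 of 4 and 5 of 5 were at 0 in all libraries.

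Among the 9 genes, Hmox1 was lower with NCOA4 siRNA, at 85.1% of control, and was the only gene with an adjusted p under 0.05. Alas1, Alad and Cpox were at 93.2%, 93.1% and 90.4% of control, with all NCOA4 siRNA values below all control values but with adjusted p of 0.217 to 0.290. The other 5 genes (Urod, Fech, Slc48a1, Blvra and Blvrb) lay at 98.5% to 108% of control, with overlapping groups. No gene of the 9 passed the study's thresholds, which join an adjusted p below 0.05 to a change of more than 1.5-fold and which 1.18% of all 13829 tested genes passed. The count of 1 gene of 9 with an adjusted p under 0.05 stands beside 5.42% of all tested genes, or 2.31% in the lower direction.

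**Figure D1:**
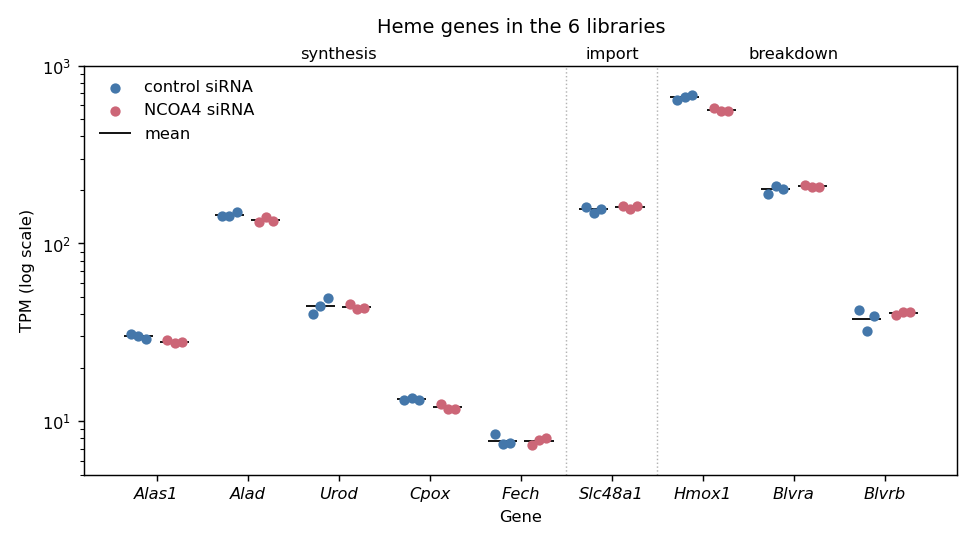
Transcript abundance of the 9 heme genes in TPM (log axis) by library, grouped as synthesis, import and breakdown; points are libraries and lines are the means of 3. Hmox1 sits highest, with NCOA4 siRNA values of 554 to 579 TPM below control values of 637 to 685 TPM, and the groups overlap for Urod, Fech, Slc48a1, Blvra and Blvrb.

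The 5 synthesis enzymes are given in pathway order. Alas1 makes 5-aminolevulinic acid and lies on chromosome 9 from 106233455 to 106248654 (minus strand; all gene positions are GRCm38, the assembly also called mm10). Its values were 30.9, 30.3 and 28.9 TPM in control siRNA replicates 1, 2 and 3, and 28.7, 27.4 and 27.9 TPM in NCOA4 siRNA replicates 1, 2 and 3. The highest NCOA4 siRNA library lay just under the lowest control library, so the groups did not overlap, by a narrow margin. The log2 fold change was -0.10 (SE 0.0480, 95% interval -0.21 to 0.014), with an adjusted p of 0.290. A noncoding gene on the opposite strand, 4930500F10Rik, covers 465 bases or 7.53% of the Alas1 exons, and reads from the pair can be told apart only if the counting used strand, which the sources used here do not state. In bulk samples such as these, fewer expressing cells and less RNA per cell cannot be told apart.

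Alad joins the product of ALAS1 into the pyrrole porphobilinogen (chromosome 4, 62509169 to 62519918, minus strand). Control siRNA replicates 1 to 3 held 142, 142 and 151 TPM, and the NCOA4 siRNA replicates 132, 140.2 and 133 TPM. All NCOA4 siRNA values were again below all control values, NCOA4 siRNA replicate 2 only narrowly. The means were 145 ± 5.07 and 135 ± 4.41 TPM, the log2 fold change -0.10 (SE 0.0437, 95% interval -0.21 to 0.0016) and the adjusted p 0.240.

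Cpox, which oxidises coproporphyrinogen in the mitochondrion (chromosome 16, 58670292 to 58717636, plus strand), was at 13.3, 13.5 and 13.1 TPM in the control libraries and 12.5, 11.8 and 11.7 TPM in the NCOA4 siRNA libraries. All NCOA4 siRNA values were below all control values, with means of 13.3 ± 0.174 and 12.0 ± 0.431 TPM. The spread over the control libraries was 1.31%, less than the 4.47% that read counting alone gives, so the control SD understates the error. The log2 fold change was -0.14 (SE 0.0571, 95% interval -0.28 to -0.0055). Its unadjusted p was 0.0434 and its adjusted p 0.217, and 21.6% of all tested genes had an unadjusted p under 0.05, so the difference did not hold after adjustment. Gpr15, on the opposite strand, shares 204 bases or 3.06% of the Cpox exons.

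The windows around the transcription start of these 3 genes are shown because, of the 5 synthesis enzymes among the 9 genes, these are the ones whose groups did not overlap. Each holds 250 bases before and 50 from the annotated start (RefSeq, GRCm38.p6), 5′ to 3′ on the gene's strand, with the letters of a searched motif in capitals. The Alas1 window, at chr9:106247681-106247980 on the minus strand, is the second of its 2 windows. It holds the NRF1 core CGCATGCG, starting 194 bases before the start. In the first Alas1 window, not shown, this site lies after that window's own start, from base 31 of the transcript. The Alad window, at chr4:62519860-62520159 on the minus strand, is the second of its 2 windows and holds the E-box CACGTG, starting 28 bases before the start; the first Alad window, not shown, holds a CACGTG starting 105 bases before its own start. Where a gene has 2 windows, 1 was shown, for length. The Cpox window, at chr16:58669958-58670257 on the plus strand, holds GATAAG on the other strand, read as CTTATC, from 87 bases before the start and again from base 4 of the transcript.
Alas1: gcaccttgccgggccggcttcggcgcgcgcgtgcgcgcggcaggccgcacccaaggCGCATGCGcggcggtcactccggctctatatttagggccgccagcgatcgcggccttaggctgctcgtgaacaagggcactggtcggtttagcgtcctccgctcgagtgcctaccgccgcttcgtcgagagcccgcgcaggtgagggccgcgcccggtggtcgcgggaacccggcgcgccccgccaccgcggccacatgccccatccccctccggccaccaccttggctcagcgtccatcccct
Alad: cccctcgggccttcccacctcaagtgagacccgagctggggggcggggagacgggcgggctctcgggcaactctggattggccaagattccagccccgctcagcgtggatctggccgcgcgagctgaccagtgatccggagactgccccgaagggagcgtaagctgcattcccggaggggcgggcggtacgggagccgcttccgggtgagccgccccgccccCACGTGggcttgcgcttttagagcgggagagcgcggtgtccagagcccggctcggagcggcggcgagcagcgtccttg
Cpox: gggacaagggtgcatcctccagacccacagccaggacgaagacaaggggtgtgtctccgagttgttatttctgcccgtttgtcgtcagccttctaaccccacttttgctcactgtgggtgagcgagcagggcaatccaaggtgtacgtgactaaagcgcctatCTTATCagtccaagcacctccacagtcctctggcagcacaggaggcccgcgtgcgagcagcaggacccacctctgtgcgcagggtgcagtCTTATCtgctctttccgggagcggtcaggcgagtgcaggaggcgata

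Both strands were searched for 4 motifs, and the shares of all 32851 windows of this length that hold each were 12.4% for TGACNNNGC (the core of the antioxidant response element), 7.15% for CACGTG, 1.87% for CGCATGCG and 7.44% for GATAAG. The motifs do not overlap in these windows. Of the 9 genes, 6 had a window. Hmox1, Slc48a1 and Fech had none and were not searched for the motifs. The Urod window holds CACGTG 49 bases before the start, the Blvra window holds TGACNNNGC on the other strand 49 bases before the start, and the 2 Blvrb windows hold none of the 4. A match describes the letters and is no evidence that a factor binds.

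Urod decarboxylates uroporphyrinogen (chromosome 4, 116989965 to 116994413, minus strand) and did not separate the groups. It was at 40.1, 44.4 and 49.5 TPM with control siRNA and at 45.4, 43.0 and 43.6 TPM after NCOA4 knockdown, so the NCOA4 siRNA values lay inside the control range. The difference was -0.016 (log2 fold change, SE 0.0777, 95% interval -0.20 to 0.17), with an adjusted p of 0.928. The coefficient of variation was 10.5% over the control libraries and 2.84% over the NCOA4 siRNA libraries, where read counting alone gives 3.92% and 3.91%. Control siRNA replicate 3 set the highest value, and without it the log2 fold change changed sign, to 0.060.

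Fech inserts iron into protoporphyrin, the last step (chromosome 18, 64452914 to 64490251, minus strand). Its control values were 8.43, 7.44 and 7.51 TPM and its NCOA4 siRNA values 7.37, 7.81 and 8.05 TPM, fully interleaved. The log2 fold change was -0.0080 (SE 0.0807, 95% interval -0.20 to 0.18; adjusted p 0.969), the smallest of the 9 in size. Its sign changed when control siRNA replicate 1 or NCOA4 siRNA replicate 1 was left out, to 0.046 and 0.025.

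Over the 5 synthesis genes the median log2 fold change was -0.10, against 0.03 over all tested genes, and none had an adjusted p under 0.05. Over the 8 tested enzymes of the whole synthesis list the median was -0.012, so the -0.10 holds only for these 5. All 5 means were lower with NCOA4 siRNA, by 0.678% for Fech to 9.64% for Cpox. Of all 13829 tested genes, 5896 had a log2 fold change below 0. Uros and Ppox, which act in the same pathway, had higher means with NCOA4 siRNA. Uros, which closes the ring, was at 4.07 ± 0.447 and 5.49 ± 0.745 TPM (log2 fold change 0.39; adjusted p 0.149), and Ppox, which oxidises protoporphyrinogen, at 12.0 ± 0.367 and 13.5 ± 0.790 TPM (log2 fold change 0.16; adjusted p 0.218). For Uros and Ppox all NCOA4 siRNA values were above all control values, and neither passed the test. Uros rested on 69 to 134 reads per library, and 15.3% of the 50-base words of Ppox also stand in B4galt3. Alas2, the erythroid form of the initial enzyme, had 0 reads in all 6 libraries. The limit of 3 reads per library allows it up to 0.2395 TPM, in counting error only.

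**Figure D2:**
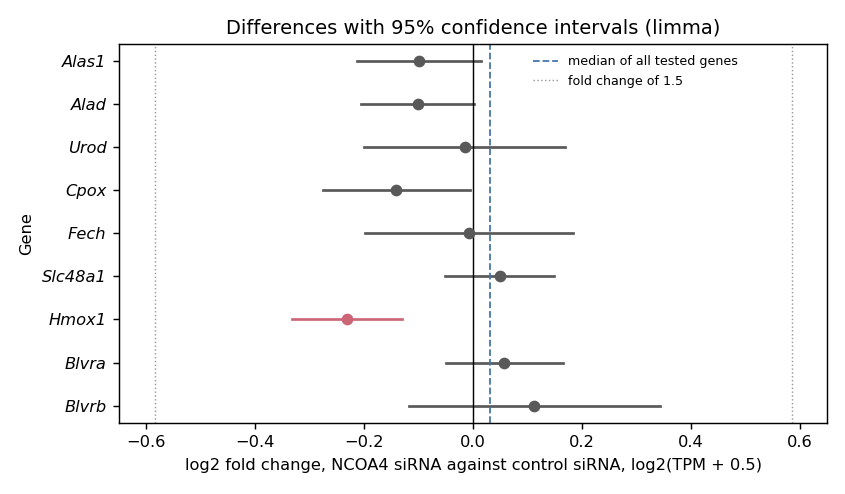
Log2 fold change of each of the 9 heme genes on log2(TPM + 0.5), NCOA4 siRNA against control siRNA, with its 95% interval from limma; the solid line marks no difference, the dashed line the median of all tested genes, the dotted lines a fold change of 1.5, and red an adjusted p under 0.05. The intervals of Hmox1 (-0.33 to -0.13) and Cpox (-0.28 to -0.0055) lie below 0, and only Hmox1 has an adjusted p under 0.05.

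Slc48a1 carries heme out of the phagolysosome (chromosome 15, 97778520 to 97792692, plus strand). It was at 160.5, 149 and 157 TPM with control siRNA and 162, 157 and 163 TPM after NCOA4 knockdown. The lowest value was control siRNA replicate 2 and the groups overlapped. The means were 155 ± 5.88 and 161 ± 3.50 TPM, with a log2 fold change of 0.049 (SE 0.0421, 95% interval -0.05 to 0.15) and an adjusted p of 0.555. In linear terms the interval spans 96.5% to 111% of control. Centring each library on its median gene turned the sign of the difference, to -0.0094. Hdac7, on the opposite strand, shares 29 bases or 1.05% of the Slc48a1 exons.

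Hmox1, the inducible heme oxygenase (chromosome 8, 75093621 to 75100589, plus strand), was at 637, 665 and 685 TPM in control siRNA replicates 1, 2 and 3 and at 579, 558 and 554 TPM in NCOA4 siRNA replicates 1, 2 and 3. No library with NCOA4 siRNA reached the lowest control value, and the groups were set well apart. The means were 663 ± 24.3 and 564 ± 13.3 TPM, a log2 fold change of -0.23 (SE 0.0426, 95% interval -0.33 to -0.13) and an adjusted p of 0.0291 by limma. In linear terms the interval is 79.4% to 91.3% of control. The exact permutation test gave p = 0.1, the smallest that 3 against 3 libraries can give. Between 5323 and 7062 reads lay behind each value, for a counting error of 1.24% to 1.33% beside a spread between replicates of 3.66% with control siRNA and 2.36% with NCOA4 siRNA. No 50-base word of the Hmox1 transcripts stands in a transcript of another gene.

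The direction for Hmox1 held in 16 of 16 alternative analyses and its adjusted p was under 0.05 in 8 of them. With a library left out, the adjusted p was 0.0117 without control siRNA replicate 1, and it missed the threshold at 0.0722 and 0.0748 without control siRNA replicates 2 and 3 and at 0.0999, 0.1396 and 0.132 without NCOA4 siRNA replicates 1, 2 and 3. The log2 fold changes without a library ran from -0.26 to -0.21. Of the 8 macrophage markers, 6 were higher without overlap between the groups, Cd68 was lower without overlap and Spi1 overlapped. Over all tested genes 28.4% had groups that did not overlap, and 11.8% were lower in this way. The part of the markers in the Hmox1 difference was not tested.

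**Figure D3:**
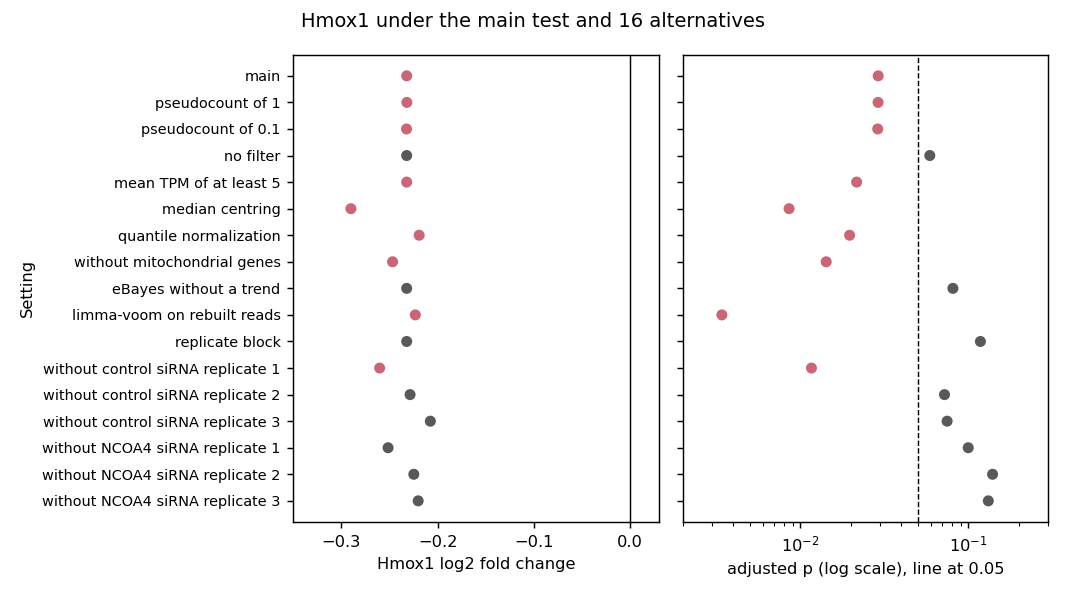
Log2 fold change of Hmox1 (left) and its adjusted p on a log axis with a line at 0.05 (right) under the main analysis and the 16 alternatives; red marks an adjusted p under 0.05. All log2 fold changes lie between -0.29 and -0.21, and 8 of the 16 alternatives keep the adjusted p under 0.05.

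Blvra, the reductase of the common biliverdin IXα (chromosome 2, 127070665 to 127097084, plus strand), was at 191, 210.4 and 203 TPM with control siRNA and 213, 208 and 207 TPM after NCOA4 knockdown. The NCOA4 siRNA values sat at the upper end of the control range and overlapped it. The log2 fold change was 0.057 (SE 0.0452, 95% interval -0.05 to 0.16; adjusted p 0.523), and it turned to -0.0014 with median centring. Blvrb, which reduces other biliverdin isomers and flavins (chromosome 7, 27447978 to 27466144, plus strand), was at 42.0, 32.0 and 39.0 TPM with control siRNA and 39.4, 41.2 and 41.0 TPM after NCOA4 knockdown. Control siRNA replicate 2 was low and the other 5 libraries lay between 39.0 and 42.0 TPM. Its log2 fold change was 0.11 (SE 0.0969, 95% interval -0.12 to 0.34; adjusted p 0.553), and without control siRNA replicate 2 it was 0.0011. The spread of Blvrb over the control libraries was 13.6%, beside 2.51% over the NCOA4 siRNA libraries where read counting alone gives 4.12% and 3.93%.

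Hmox2, the constitutive heme oxygenase, completes the breakdown list. It was at 113 ± 11.6 TPM with control siRNA and 121 ± 2.49 TPM after NCOA4 knockdown (log2 fold change 0.11; adjusted p 0.457), and 41.9% of its 50-base words also stand in overlapping or similar genes, mostly Cdip1, so its level is uncertain. The ratio of Hmox1 to Hmox2 was 5.19, 5.78 and 6.86 with control siRNA and 4.87, 4.51 and 4.61 with NCOA4 siRNA, without overlap. Hmox1 made up 50.3% to 51.4% of the summed TPM of the 9 genes with control siRNA and 46.6% to 47.5% with NCOA4 siRNA. The sum of Blvra and Blvrb was 233, 242 and 242 TPM with control siRNA and 252, 249 and 248 TPM after NCOA4 knockdown. These sums did not overlap, although the groups overlapped for each gene alone. No test was made on these sums and ratios. They rest on TPM by the length of all annotated exons, and their size depends on the length used.

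In all, 4 of the 9 genes (Hmox1, Alas1, Alad and Cpox) had groups that did not overlap, each lower with NCOA4 siRNA. Over all tested genes 28.4% had groups that did not overlap, and 11.8% were lower in this way. The median log2 fold change of the 9 was -0.016 and the median of its size 0.0995, beside 0.03 and 0.118 over all tested genes. At an unadjusted p under 0.05, 2 of the 9 passed (Hmox1 and Cpox), beside 21.6% of all tested genes, so this count is near the general share.

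In the wider heme pathway, 6 lists held 54 genes, of which 48 were tested. With the 9 genes included, 2 rose and 3 fell at an adjusted p under 0.05, beside 3.11% and 2.31% of all tested genes, and the median log2 fold change of the 48 was 0.02. None had both an adjusted p under 0.05 and a change of more than 1.5-fold, which 1.18% of all tested genes had. The 4 that changed beside Hmox1 belong to different parts of heme biology.

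Slc25a37 (mitoferrin 1), which imports iron into the mitochondrion, rose. Its values were 41.6, 45.0 and 43.8 TPM with control siRNA and 52.7, 50.2 and 49.7 TPM after NCOA4 knockdown. This gave a log2 fold change of 0.23 (SE 0.0485; adjusted p 0.0475), just inside the threshold. It passed in 6 of 16 alternatives, and leaving out any of the 6 libraries gave an adjusted p of 0.0616 to 0.177. Hebp1, a cytosolic heme-binding protein, also rose, with control siRNA values of 28.6, 32.1 and 31.6 TPM against 39.3, 38.4 and 38.2 TPM. Its log2 fold change was 0.32 (SE 0.0557; adjusted p 0.0242).

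Lonp1, the mitochondrial protease that degrades ALAS1 among many other proteins, fell. It was at 148, 138 and 146 TPM with control siRNA and 122, 117 and 120.1 TPM after NCOA4 knockdown. Its log2 fold change was -0.27 (SE 0.0416; adjusted p 0.0180). Nr1d2, a heme-binding nuclear receptor (REV-ERBβ) that represses transcription, fell from 15.8, 15.6 and 14.7 TPM to 11.6, 11.5 and 10.5 TPM. This was the largest fall among the tested genes of the lists, with a log2 fold change of -0.44 (SE 0.0650; adjusted p 0.0151). For these 4 genes no NCOA4 siRNA value reached a control value. With any NCOA4 siRNA library left out, Hebp1, Lonp1 and Nr1d2 missed the threshold, with an adjusted p of up to 0.110, 0.0915 and 0.0674. Nr1d2 had an adjusted p under 0.05 with each control siRNA library left out, and Hebp1 and Lonp1 missed it without control siRNA replicate 3, at 0.0564 and 0.0582.

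**Figure D4:**
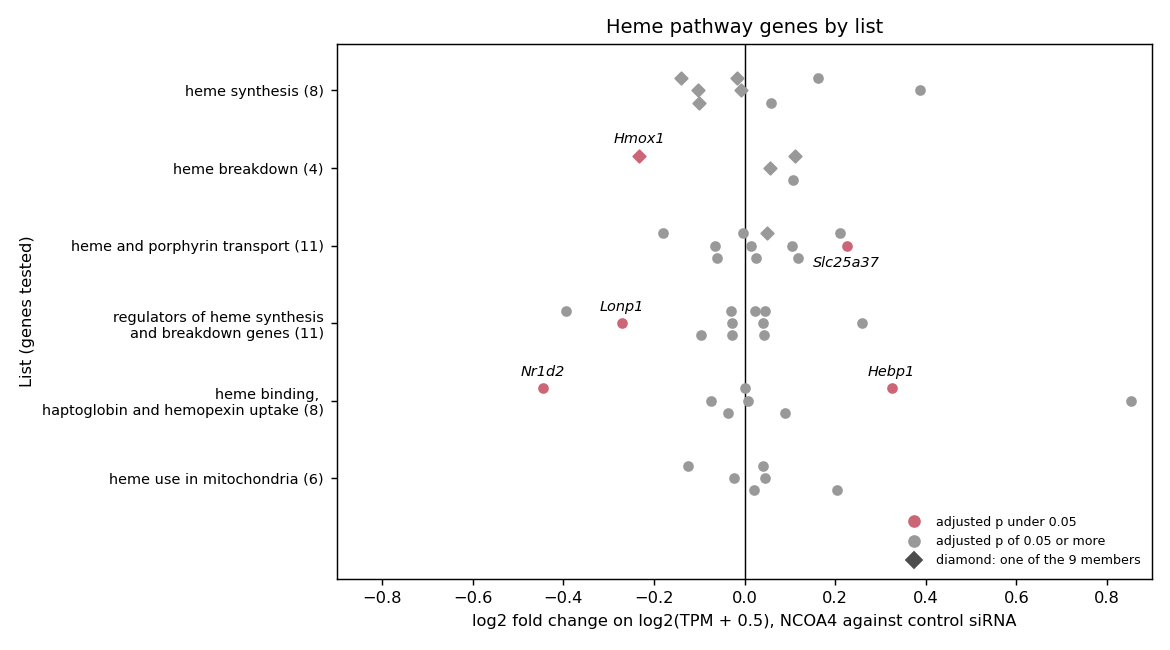
Log2 fold change on log2(TPM + 0.5) of the 48 tested genes of 6 heme lists, NCOA4 siRNA against control siRNA; diamonds are the 9 heme genes, red marks an adjusted p under 0.05 and the number beside each list is the count of genes tested. Most points lie near 0, and 5 genes are marked: Hmox1, Lonp1 and Nr1d2 below 0, Slc25a37 and Hebp1 above.

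Of the regulators, 1 of 11 tested passed (Lonp1), beside 5.42% of all tested genes. Bach1, the repressor of Hmox1, was at 18.6, 21.1 and 20.8 TPM with control siRNA and 25.7, 23.0 and 23.9 TPM after NCOA4 knockdown (log2 fold change 0.26; adjusted p 0.0881). Maff, a small MAF protein, was at 11.8, 14.8 and 13.8 TPM with control siRNA and 10.4, 10.05 and 9.90 TPM after NCOA4 knockdown (-0.39; adjusted p 0.0565). Neither overlapped between groups, and neither passed the test. The adjusted p of Maff was under 0.05 in 6 of 16 alternatives and that of Bach1 in 1. The gene of NRF2 (Nfe2l2) and the other small MAF genes of the list (Mafg and Mafk) overlapped between groups. Nfe2l2 was at 155 ± 0.873 TPM with control siRNA and 152 ± 3.82 TPM after NCOA4 knockdown (adjusted p 0.688, limma). Mafg was at 67.6 ± 2.73 and 68.7 ± 1.53 TPM (adjusted p 0.818), and Mafk at 34.2 ± 1.58 and 35.2 ± 1.16 TPM (adjusted p 0.686). The part of these regulators in the Hmox1 difference was not tested. Spic, which drives red pulp macrophage genes, had 0 reads in every library, for a limit of up to 0.1498 TPM.

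Among the transporters, 1 of 11 tested passed (Slc25a37), beside 5.42% of all tested genes. Of the 11, 4 had a log2 fold change below 0, none with an adjusted p under 0.05. The lowest log2 fold change was that of Abcb6, at -0.18, where the abundance was 0.6497 and 0.505 TPM and 50% of its 50-base words stand in another gene. Flvcr2 had 0 reads in every library, for a limit of up to 0.1642 TPM. In the list of heme binding and of haptoglobin and hemopexin uptake, 2 of 8 tested passed (Hebp1 and Nr1d2), beside the same 5.42%. The highest log2 fold change there was that of Hp, haptoglobin, at 0.85 (adjusted p 0.156), which rests on 8 to 22 reads per control library and 26 to 43 per NCOA4 siRNA library. None of 6 genes of heme use in mitochondria passed. Their log2 fold changes ran from -0.12 (Hccs, which attaches heme to cytochrome c) to 0.20 (Cox15, which makes heme a). Of the 50-base words of Hccs, 24.5% also stand in Arhgap6.

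The levels of the 9 genes, which TPM corrects for length, spanned from 663 TPM for Hmox1 to 7.79 TPM for Fech with control siRNA. The order was Hmox1, Blvra, Slc48a1, Alad, Urod, Blvrb, Alas1, Cpox and Fech in both groups. With control siRNA the ranges of Slc48a1 and Alad overlapped, as did those of Urod and Blvrb, and all other neighbours were separate. With NCOA4 siRNA no neighbours overlapped. Hmox1 stood 3.29 times above Blvra with control siRNA and 2.69 times with NCOA4 siRNA. The authors' TPM divides by the length of all annotated exons, which was 1.08 (Slc48a1) to 2.71 (Blvrb) times the length of the principal transcript. With that shorter length, an alternative chosen after seeing the data, Alad (218 TPM) stood above Slc48a1 (168 TPM) and Blvrb (102 TPM) above Urod (77.7 TPM). By the same shorter length Hmox1 was at 739 TPM and Blvra at 425 TPM with control siRNA, closer together than by the length of all exons. These levels by gene are relative. The order within each of the 2 pairs and the ratios between genes depend on the length used.

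By profile over the 6 libraries, the genes closest to Hmox1 among 10037 compared were Anxa5, Lgals3 and Impdh1, with root mean square differences of 0.0195, 0.0199 and 0.0243 on the centred log2 scale, where Hmox1 itself varied by 0.122. Their log2 fold changes were -0.22, -0.24 and -0.24. Closest to Alas1 were Inf2, Atp6v1d and Utp6, at 0.0066, 0.0094 and 0.0103, where Alas1 varied by 0.0603. Both sets were picked for their likeness, over 6 libraries that share the same 2 groups.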

How the data were processed

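Poly(A) RNA of J774 cells was sequenced by the authors from stranded TruSeq mRNA libraries. The authors deposited a table of TPM values per library. The submitters' processing notes name Trimmomatic 0.33, FastQC, HISAT2 2.1.0, featureCounts, edgeR and the build mm10. The annotation version and the strand setting of the counting are not given in the sources used here. No scaling between libraries is visible beyond the common total of TPM.

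Groups were taken from the labels, which call the samples biological replicates; nothing says that they came from separate cultures, so p-values measure the spread between these samples. Of the 55487 gene identifiers, 55227 were named through GENCODE M21. Whole reads were rebuilt from TPM and exon length with a tolerance of 0.05, which gave whole reads for 98.7% of 21055 genes with a length and a value above 0. The rebuilt reads served depth, counting error and an alternative test.

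A gene entered the test where its TPM averaged 0.5 or more over the libraries. The test was that of limma 3.58.1 (R 4.3.3; lmFit, and eBayes with a trend) on log2(TPM + 0.5), with Benjamini-Hochberg adjustment over 13829 genes. Fold changes are on this scale, which understates changes of low genes. Exact two-sided permutation tests ran over 20 arrangements of the libraries. The procedure was run on simulated reads drawn with the same spread between replicates in both groups, unlike the replicates here. The 16 alternatives changed the pseudocount (1 or 0.1), the filter (none, or a mean TPM of at least 5), the scaling (median centring, quantile normalization, or no mitochondrial genes), the variance model (no trend, or limma-voom on rebuilt reads) and the replicate block, or left out each library. Transcript words of 50 bases were matched between genes on both strands. Python 3.11.15 was used for these steps.

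The members and lists were chosen with earlier results of these data known. The genes named are the 9, Ncoa4, the genes of the synthesis and breakdown lists (apart from what is not reported here), of the other lists those with an adjusted p under 0.05, those at an end of the list's log2 fold changes and those at 0 throughout, and the 3 nearest profiles of Hmox1 and Alas1. Marker genes named beside them are those with an adjusted p under 0.05 or at 0. The markers Lyz2, Cd68, Spi1, Klf1 and Epor and the regulators Nfe2l2, Mafg and Mafk were named after their values were seen.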

Additional observations from a re-analysis of the deposited data

How the results depend on the processing

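Of the log2 fold changes of the 9 genes under the 16 alternatives, 130 kept their direction and their side of the threshold, 8 kept the direction and missed the threshold, and 6 changed sign. The 8 are those of Hmox1, at a log2 fold change of -0.23 with no filter (adjusted p 0.0590), without a trend (0.0810) and with the replicate block (0.118), and with 5 of the 6 libraries left out in turn. Over all 6 left-out libraries the log2 fold change of Hmox1 ran from -0.26 to -0.21, and the -0.26, without control siRNA replicate 1, kept an adjusted p under 0.05 (0.0117). The cause was not tested. The sign changes were in genes that passed in no setting: Slc48a1 to -0.0094 and Blvra to -0.0014 with median centring, Fech to 0.00086 with limma-voom and over a range of -0.038 to 0.046 with a library left out, and Urod over -0.091 to 0.060 with a library left out. No alternative gave a called gene among the 9. The count of genes of the 9 with an adjusted p under 0.05 was 0 with no filter, without a trend and with the block, and 0 to 1 with a library left out. The count over the heme lists was 5, and 3 with no filter, 1 without a trend, 0 with the block and 0 to 5 with a library left out. Over all genes, 750 had an adjusted p under 0.05, against 499 with no filter, 404 without a trend, 1484 with limma-voom, 161 with the block and 174 to 841 with a library left out. The 163 called genes became 87 with the block and 93 to 173 with a library left out. The split of 430 higher and 320 lower genes (57.3% higher) became 348 and 622 (35.9%) with median centring, which moved the median gene from 0.03 to -0.03, and 405 and 419 (49.2%) with quantile normalization.

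Replicate numbers are shared by the groups, but same-numbered libraries did not deviate together: their correlations across genes were 0.0283, -0.0185 and 0.0229. The numbers were therefore not taken as pairs. With the replicate block the log2 fold changes stay the same by construction and Hmox1 had an adjusted p of 0.118.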
